A study of Mus musculus with 20 samples.

Results

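The 69 genes described here were almost without transcripts in heterozygous male germ cells on postnatal day 2 (d2) and had transcripts in every Tex15 knockout library of that age. They were chosen from the 24341 gene symbols of the d2 count table by their d2 values. A gene's level is given in CPM (counts-per-million), its share of the counts in the gene rows of the same library. A member had a mean under 1 CPM in the 4 heterozygous libraries, a mean of at least 2 CPM in the 4 knockout libraries, and its lowest knockout value above its highest heterozygous value. Symbols of the Olfr, Vmn, Pcdh, Zfp9 and Hist families were left out, which removed 12 of 81 genes (10 Olfr and 2 Vmn symbols). The d2 contrast between genotypes is therefore the choice itself, and is described without a test. The rule was met by 0.316% of the 21850 genes with a count at d2, and 3.07% of them had every knockout library above every heterozygous library.

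RNA was sequenced from male mouse germ cells of a mixed strain background that had been sorted by flow cytometry on green fluorescence. The Tex15ht groups carried Tex15+/- cells and the Tex15ko groups Tex15-/- cells, 20 libraries in all: 3 of each genotype at e16.5 and at e18.5 (days of embryonic development), and 4 of each at d2. Every control was thus heterozygous for Tex15, wild-type germ cells were not analysed here, and the labels name neither the gene that drives the fluorescent protein nor the design of the Tex15 allele. The study text speaks of triplicates, which d2 exceeds, and nothing says that each library came from a separate animal, so p-values measure only the spread between these libraries.

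The libraries held 14.3 to 31.5 M (mega) counts, with 7.78 to 14.2 M of them in gene rows. Tex15 checked the labels: it stood at 1328 to 1852 CPM in embryonic heterozygous libraries and at 1.73 to 4.87 CPM in embryonic knockout libraries. At d2 it was 667 to 1022 CPM in heterozygous libraries and 2.01, 2.36 and 2.56 CPM in 3 knockout libraries, while knockout replicate 2 had 103 CPM (799 counts). With all d2 libraries Tex15 itself did not pass the edgeR test used below (log2 -4.97 ± 1.46 SE, edgeR adjusted p = 0.167). Without knockout replicate 2 the same rule gave 69 genes, of which 63 were shared. At d2 the sum of male germ cell markers was 4499 to 4815 CPM for heterozygous and 4805 to 5764 CPM for knockout libraries, and some markers of other cells were detected too. Of the 8 markers of macrophages and white blood cells, C1qa, C1qb, Lyz2 and Adgre1 were under 1 CPM on average in both genotypes, while Mrc1 had 32.3 and 34.5 CPM, Cd68 20.4 and 13.2, Csf1r 4.34 and 5.55 and Ptprc 1.16 and 1.53.

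Tex15 encodes a protein of male germ cells that is needed for the silencing of transposable elements in the fetal testis. In this period male germ cells stop dividing and re-establish DNA methylation, a mark that piRNA-guided silencing places on young transposons and that is also laid down over most of the genome. Cytosines followed by guanine (CpG sites) are the usual target of the mark. Genes of other tissues with few CpG sites in their promoters are commonly methylated and silent in germ cells, while CpG-rich promoters mostly stay unmethylated. Among the 69 genes are several of liver physiology. Abcb11 encodes the bile salt export pump, Apoh the plasma protein beta-2-glycoprotein I, and Cyp4a12b a fatty acid hydroxylase of the cytochrome P450 family. Taste and glia had 1 member each in the gene lists used below. These are Gnat3, which encodes gustducin, the G protein alpha subunit of taste cells, and Cdh19, a type II cadherin of Schwann cell precursors. The liver, bile salt and Cyp4 lists also held 1 member each, and other genes of these lists are given below.

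Sequence at the start of the genes was taken from RefSeq on build GRCm38.p6, as the 250 bases before and 50 bases after the most upstream annotated start (the deposited counts rest on another build, mm9, and no position was carried between them). All 69 symbols matched RefSeq, 4 of them by an older symbol, as 52 protein-coding genes, 14 long noncoding RNAs and 3 transcribed pseudogenes, and 51 had an entry in the promoter table. The following 5 are shown 5′ to 3′ on the gene's strand with each CpG in capitals. Gnat3, Apoh and Abcb11 are CpG-poor promoters of genes that define the set, Ifi203 holds a lone CpG and rose at e18.5, and Foxf2 is the contrast, a CpG-rich member.
Gnat3, chr5:17962320-17962619, plus strand: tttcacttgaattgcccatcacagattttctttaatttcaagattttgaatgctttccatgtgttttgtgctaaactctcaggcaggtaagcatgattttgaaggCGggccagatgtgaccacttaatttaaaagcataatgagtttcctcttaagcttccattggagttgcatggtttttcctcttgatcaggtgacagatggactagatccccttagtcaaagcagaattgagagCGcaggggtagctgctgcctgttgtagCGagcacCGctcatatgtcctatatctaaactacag
Apoh, chr11:108395047-108395346, plus strand: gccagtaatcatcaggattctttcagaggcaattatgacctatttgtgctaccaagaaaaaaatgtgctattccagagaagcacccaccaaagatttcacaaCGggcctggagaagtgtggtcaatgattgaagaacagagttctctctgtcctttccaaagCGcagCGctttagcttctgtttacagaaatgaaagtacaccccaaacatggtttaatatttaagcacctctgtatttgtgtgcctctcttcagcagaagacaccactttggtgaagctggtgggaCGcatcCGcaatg
Abcb11, chr2:69342567-69342866, minus strand: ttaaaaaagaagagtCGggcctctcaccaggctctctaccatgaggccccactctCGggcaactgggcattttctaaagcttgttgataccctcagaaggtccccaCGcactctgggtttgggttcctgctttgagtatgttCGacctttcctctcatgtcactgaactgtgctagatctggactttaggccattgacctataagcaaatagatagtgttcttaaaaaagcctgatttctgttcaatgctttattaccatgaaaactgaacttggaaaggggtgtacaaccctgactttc
Ifi203, chr1:173942623-173942922, minus strand: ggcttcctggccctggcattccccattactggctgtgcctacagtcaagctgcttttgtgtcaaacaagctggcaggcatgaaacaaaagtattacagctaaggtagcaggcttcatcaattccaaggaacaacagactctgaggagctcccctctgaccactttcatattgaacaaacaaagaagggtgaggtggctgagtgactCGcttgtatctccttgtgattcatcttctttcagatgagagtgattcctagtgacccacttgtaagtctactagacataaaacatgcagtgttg
Foxf2, chr13:31625566-31625865, plus strand: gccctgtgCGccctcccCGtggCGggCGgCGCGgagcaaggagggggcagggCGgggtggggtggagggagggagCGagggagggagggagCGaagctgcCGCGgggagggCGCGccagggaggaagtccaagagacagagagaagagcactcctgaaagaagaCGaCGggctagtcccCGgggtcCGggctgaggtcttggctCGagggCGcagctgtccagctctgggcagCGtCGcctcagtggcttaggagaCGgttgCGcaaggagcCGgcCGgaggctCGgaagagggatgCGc

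Promoters of the set were poor in CpG. The printed Gnat3 window holds 4 CpG sites, that of Apoh 5, that of Abcb11 4 and that of Ifi203 1, against 27 in Foxf2. Over the 51 members with an entry the median was 4 CpG per window, compared with 7 over all 27025 genes in the table and 19 over the 12451 genes with a heterozygous mean of at least 1 CPM at d2. At most 5 CpG were found in 33 of 51 members (64.7%), in 43.6% of all promoters and in 14.0% of those of the genes at or above 1 CPM. Genes under 1 CPM in both genotypes at d2 looked like the members: their median was also 4, and 67.3% of the 3941 promoters had at most 5. The share without any CpG was 9.80% (5 of 51) against 5.77% of all promoters.

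**Figure D1:**
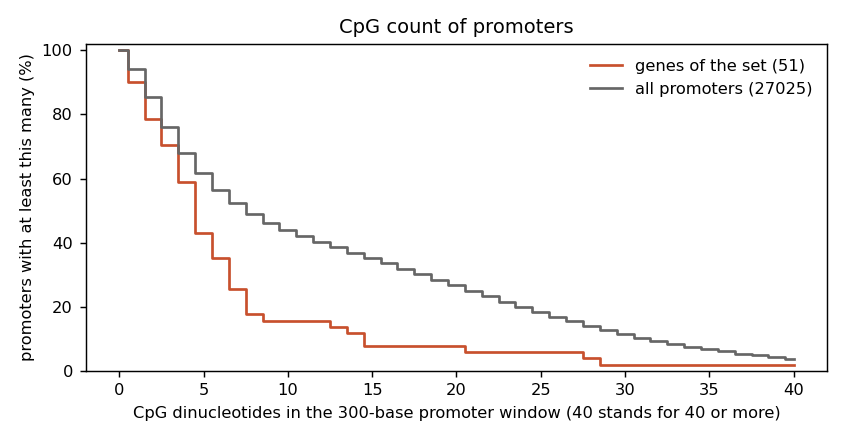
Share of promoters (vertical axis, percent) that hold at least the number of CpG sites on the horizontal axis, within 250 bases before and 50 after the start, for the 51 members with an entry and for all 27025 promoters. The members' curve runs below that of all promoters, with a median of 4 against 7 CpG.

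Short motifs searched on both strands were no more frequent in members than in all promoters, apart from the CRE. The TATA box (TATAAA) was found in 5 of 51 members (9.80%) and in 14.2% of all promoters. A CCAAT box (CCAAT) was found in 16 members (31.4%) against 38.0%, and a GC box (GGGCGG) in 6 (11.8%) against 35.9%. The E-box CACGTG was found in 3 (5.88%) against 7.24%. A cyclic AMP response element (CRE, TGAC followed directly by GTCA) was found in 2 (3.92%) against 1.85%, and the binding sequence of the liver factor HNF1 (GTTAAT and TTAAC with 2 free bases between) in 0 of 51 against 0.0407% of all promoters. The CRE, the E-box and the GC box contain a CpG themselves. These shares are descriptions of the printed letters in these windows and were not tested.

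At d2 the genes fell into a few well-expressed members and many low ones. The knockout mean was at least 10 CPM in 10 members and under 5 CPM in 44 of 69, and CPM are not scaled for gene length, so these levels do not rank the genes by transcripts. In the heterozygous libraries 6 members had no count at all: Cyp4a12b, Reg2, AA792892, Gm6416, C630028M04Rik and 4930448K20Rik. Of the 69 members, 41 to 51 had a count in a given heterozygous library. All 69 had a count in each knockout library, which the rule required.

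Gnat3 had 0.331, 0, 0 and 1.47 CPM in heterozygous replicates 1 to 4 and 88.3, 51.2, 71.4 and 66.6 CPM in the knockout replicates. Heterozygous replicate 4 held most of its 15 heterozygous counts, against 2616 counts in knockout cells, a ratio of 186 (95% interval 112 to 333, exact binomial, counting error only). This interval, like the other d2 intervals below, rests on values by which the rule chose the gene. It leaves out the spread between libraries and is no test. Its neighbour on the chromosome, Cd36, which takes up fatty acids at the cell surface, is also a member, with 0.442, 0, 0.116 and 0.614 CPM in heterozygous and 3.91, 2.70, 4.36 and 6.68 CPM in knockout libraries. Whether strand was used in counting is not given in the sources used here, so reads of neighbouring or overlapping genes could be shared.

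Cdh19 had 0.221, 0.284, 0.349 and 0.491 CPM in heterozygous libraries, and 81.6, 40.5, 23.9 and 45.5 CPM in knockout libraries. Its knockout values spread more than those of Gnat3, with replicate 1 the highest (mean 47.9 ± 24.3 CPM, SD, n = 4). The ratio of summed counts was 150 (87.6 to 283).

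Transporters and lipid carriers made up 5 of the members. Slco1a5, an organic anion transporter that also carries bile salts, had 1.21, 0.213, 1.39 and 1.10 CPM in heterozygous libraries and 37.4, 30.6, 43.3 and 42.3 CPM in knockout libraries (ratio 44.2, 31.7 to 63.8). Apoh had 0.110, 0.0711, 0 and 1.47 CPM, with replicate 4 apart from the rest, and 26.4, 31.5, 23.3 and 15.3 CPM in knockout libraries (ratio 66.1, 39.2 to 121). In both genes the lowest knockout library was more than 10 times the highest heterozygous library. Abcb11 had 0.110, 0.0711, 0 and 0 CPM (2 counts in all) against 7.08, 9.26, 7.22 and 4.53 CPM (252 counts), a ratio of 134 with a wide interval of 36.8 to 1115.

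Enzymes included Cyp4a12b, which had no count in any heterozygous library and 22.4, 17.9, 17.4 and 26.5 CPM in knockout libraries. With 813 knockout counts it was at least 289-fold higher, against a floor of 3 counts over the heterozygous group. Sult2a5, a sulfotransferase of the bile acid and steroid family, had 1 heterozygous count and 2.01, 3.09, 3.24 and 2.97 CPM in knockout libraries. Cyp7b1, an oxysterol hydroxylase, had 0, 0.284, 1.51 and 0.491 CPM against 9.5, 6.04, 6.97 and 2.88 CPM. Cyp4a, Sult2a, Slco, Ugt2b, Defb, Clec2, Clca and cathepsin genes lie in families of near-identical copies, and how reads with several matches were counted is not given in the sources used here, so their levels are uncertain.

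Immune and defence genes formed another group. C6, a component of the complement attack complex, had 0.331, 1.07, 0.116 and 0.736 CPM against 17.6, 11.2, 22.6 and 16.1 CPM. Clec2g, a C-type lectin, was even across knockout libraries, at 14.2, 14.0, 11.2 and 13.9 CPM, and had a heterozygous mean of 0.303 CPM. Defb4, a beta-defensin, had 16.4, 17.9, 13.6 and 5.11 CPM in knockout libraries and a heterozygous mean of 0.260 CPM. Ifi203, an interferon-inducible gene of the AIM2-like family, had 0, 0.213, 0.232 and 0.245 CPM against 3.91, 9.90, 7.47 and 5.85 CPM. Lair1, an inhibitory receptor for collagen, and Casp1, the inflammasome protease, came nearer to an overlap through heterozygous replicate 4, which had 2.21 CPM of Lair1 (knockout 3.38 to 6.30) and 2.09 CPM of Casp1 (knockout 3.87 to 11.3).

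**Figure D2:**
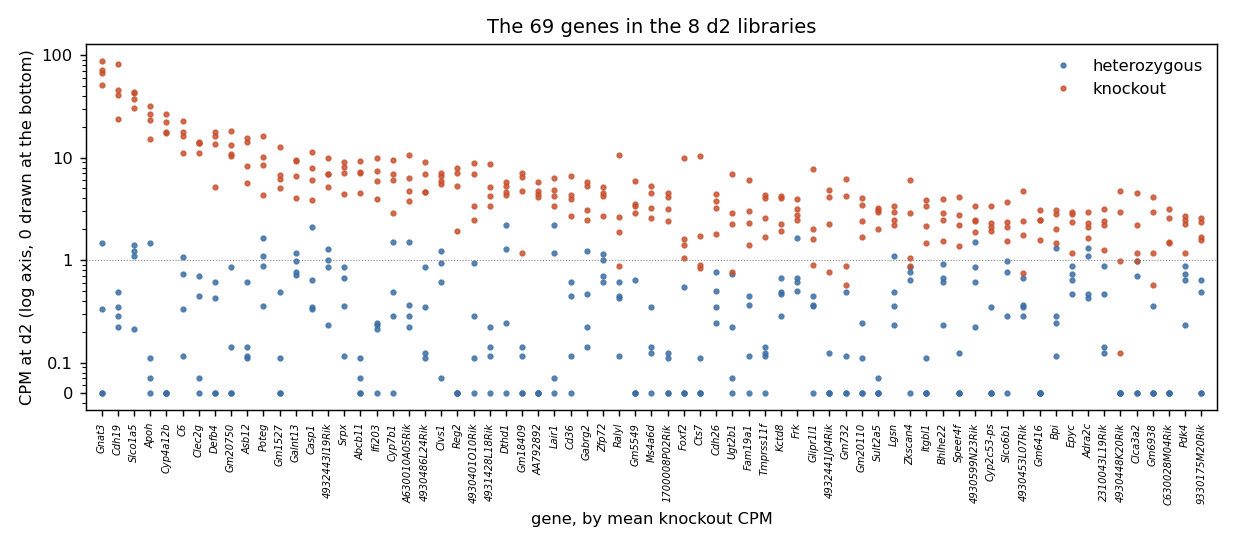
CPM of the 69 members in the 8 d2 libraries (vertical log axis; values of 0 are drawn at the bottom), with the genes along the horizontal axis ordered by knockout mean and a point per library coloured by genotype; the dotted line marks 1 CPM. No heterozygous point reaches a knockout point of the same gene, which the rule required, and the knockout libraries of a gene differ by a median of 2.42 times from highest to lowest.

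Knockout libraries differed more for some members than for others. The highest knockout library was at a median of 2.42 times the lowest, and in 12 members it was over 5 times the lowest. Foxf2, a forkhead transcription factor of mesenchyme, had 1.06, 1.41, 1.62 and 9.97 CPM, so that replicate 4 made most of its mean. Cts7, a placental cathepsin, had 10.5 CPM in replicate 3 and 0.845 to 1.73 CPM in the others, and Ralyl, an RNA-binding protein, had 10.7 CPM in replicate 2 and 0.871 to 2.64 CPM in the others. No single library led: replicates 1 to 4 were the highest for 15, 19, 18 and 17 members and the lowest for 17, 18, 11 and 23. Replicate 2, the library with residual Tex15 counts, summed to 484 CPM over the set, next to 545, 508 and 486 CPM in replicates 1, 3 and 4.

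Several genes lay close to a limit of the rule. Just inside the knockout limit were 9330175M20Rik (mean 2.04 CPM), Pdk4 (2.14) and C630028M04Rik (2.18), and just outside were 2310002F09Rik (1.97), Lipm (1.97) and Skint11 (1.91). Just inside the heterozygous limit were Poteg (0.993 CPM), Slco1a5 (0.982) and Dthd1 (0.934), and just outside were Gm20744 (1.02), the plasma vitamin D carrier Gc (1.04) and Rab32 (1.06). On the rule that the genotypes must not overlap, Clca3a2, Zkscan4 and Ugt2b1 passed by the smallest gap, and Arsj, Tmem40 and Gm16897 failed by the smallest. Clca3a2, a calcium-activated chloride channel regulator, had 0.982 CPM in the highest heterozygous and 0.989 CPM in the lowest knockout library.

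The embryonic libraries, which the rule did not use, showed the difference at e18.5 as well. Of the 69 members 67 were in the embryonic tables (Gm5549 and Speer4f were not) and 65 passed the filter on low counts at e18.5. By edgeR's quasi-likelihood test, adjusted by Benjamini-Hochberg over all 18075 genes tested, 27 of the 65 were higher in knockout cells and 0 were lower. Over all genes tested 2.06% were higher and 0.271% lower. At an unadjusted p under 0.05 the members' counts were 43 higher and 0 lower, while 11.3% of all genes tested had such a p. DESeq2 called 32 members higher and 0 lower, and no share over all genes is given for it. Every knockout library stood above every heterozygous library in 42 of 67 members, against 8.61% of genes with a count, and the reverse held for 0 members and 6.78% of genes. The median log2 fold change over the members tested was 1.54, beside -0.01 over all genes tested; members that are high only in knockout cells pass the filter through them. The count of 27 ran from 18, without heterozygous replicate 2 or without knockout replicate 1, to 30, and was 19 with all ages in 1 fit.

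All 5 transporters and lipid carriers had every knockout library above every heterozygous library at e18.5, and 3 of them passed the test. These role groups were drawn up after the values had been seen. Apoh had 0.704, 0.908 and 1.16 CPM in heterozygous and 12.5, 18.8 and 16.8 CPM in knockout libraries, a 17.4-fold rise (log2 4.12 ± 0.37 SE, edgeR adjusted p = 1.4e-06). Abcb11 had 8.31, 10.6 and 7.73 CPM against 30.3, 38.5 and 33.0 CPM (log2 1.94 ± 0.22, edgeR adjusted p = 2.2e-05), so this gene was plainly expressed in heterozygous cells at e18.5. Cd36 rose from 3.59, 8.75 and 9.37 CPM to 16.8, 16.6 and 17.6 CPM (log2 1.24, edgeR adjusted p = 0.0377).

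Slco1a5 did not pass at e18.5. Its heterozygous libraries had 9.29, 7.02 and 22.5 CPM and its knockout libraries 22.8, 36.3 and 34.1 CPM, so that heterozygous replicate 3 came within reach of the lowest knockout library (log2 1.27 ± 0.35, edgeR adjusted p = 0.0958). Without heterozygous replicate 3, or by DESeq2, it was called.

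Among the metabolic enzymes 3 of 6 rose. Cyp4a12b had 1.27, 3.22 and 2.41 CPM against 20.5, 16.2 and 18.6 CPM (8.11-fold, log2 3.02 ± 0.34, edgeR adjusted p = 1.8e-05). Sult2a5 had 1.13, 1.57 and 1.83 CPM against 5.86, 8.33 and 5.88 CPM (log2 2.15, edgeR adjusted p = 0.00598, or 0.0570 without knockout replicate 2). Cyp7b1 had 0.915, 2.56 and 3.09 CPM against 10.7, 9.53 and 7.31 CPM (log2 2.09, edgeR adjusted p = 0.00705), a call that was lost with all ages in 1 fit and without knockout replicate 1, where the adjusted p reached 0.233. Pdk4, the kinase that restrains pyruvate oxidation, had means of 7.74 and 9.82 CPM (edgeR adjusted p = 0.775) and Galnt13, a glycosyltransferase, 4.01 and 5.79 CPM (0.701).

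Immune and defence genes gave 3 calls in 8, with no overlap in 6. Ifi203 had 4.51, 6.77 and 14.6 CPM in heterozygous and 50.1, 62.4 and 46.3 CPM in knockout libraries (6.22-fold, log2 2.64 ± 0.32, edgeR adjusted p = 0.000202). Lair1 had 9.01, 9.0 and 6.47 CPM against 38.0, 29.0 and 26.4 CPM (log2 1.93 ± 0.24, edgeR adjusted p = 5.5e-05, or 0.0800 with all ages in 1 fit). C6 had 4.01, 2.64 and 5.31 CPM against 26.7, 23.7 and 11.1 CPM (log2 2.36 ± 0.35, edgeR adjusted p = 0.000344). Casp1 was well expressed in both genotypes, with means of 16.2 and 20.9 CPM (edgeR adjusted p = 0.608). Ms4a6d, a membrane protein of myeloid cells, had means of 4.56 and 12.8 CPM (0.0895), Clec2g 0.447 and 2.74 CPM (0.0808) and Defb4 1.92 and 9.79 CPM (0.0669).

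Markers of macrophages and white blood cells moved at the same age. The sum of their 8 genes at e18.5 lay between 31.4 and 43.8 CPM in heterozygous libraries and between 92.9 and 112 CPM in knockout libraries, and 2 of the 5 tested rose: Mrc1, from 22.5 ± 5.13 to 75.0 ± 7.16 CPM, and Adgre1, from 3.98 ± 0.575 to 14.1 ± 1.90 CPM (SD, n = 3; edgeR adjusted p = 1.5e-05 and 0.00109). C1qa, C1qb and Lyz2, also on this list, were at or under 0.522 CPM on average in both genotypes, and for Csf1r, Cd68 and Ptprc the edgeR adjusted p was between 0.614 and 0.951. At d2 the sums overlapped, at 52.3 to 66.2 CPM in heterozygous and 44.2 to 65.5 CPM in knockout libraries. In RNA from sorted pools fewer cells of a type and less RNA per cell cannot be told apart, and the part of such cells in the immune genes was not tested.

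Signalling and adhesion genes gave 1 call in 6 and 1 call in 4 tested, Gnat3 and Cdh19. At an unadjusted p under 0.05 there were 4 and 2 higher, DESeq2 called 2 and 1, and 5 of 6 signalling genes had every knockout library above every heterozygous library. Gnat3 had 4.86, 5.03 and 7.92 CPM against 18.6, 20.7 and 21.4 CPM (3.43-fold, log2 1.78 ± 0.27, edgeR adjusted p = 0.000557). Cdh19 had 0.704, 0.578 and 1.64 CPM against 6.60, 4.31 and 6.06 CPM (5.88-fold, log2 2.56 ± 0.51, edgeR adjusted p = 0.00661), a call that was lost without heterozygous replicate 2 or knockout replicate 1 (adjusted p up to 0.0554). Transcription and RNA-binding factors had 0 calls among 5. At an unadjusted p under 0.05 there was 1, and DESeq2 called 0. Foxf2 had means of 4.09 and 3.81 CPM (0.968) and Ralyl 6.54 and 6.25 CPM (edgeR adjusted p = 0.971).

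Secreted proteins and proteases, a group also drawn up after the values had been seen, gave 3 calls in 3. Reg2, a regenerating-family secreted lectin, had 0, 0.0825 and 0 CPM in heterozygous libraries, a single count, and 2.97, 3.81 and 3.21 CPM in knockout libraries (110 counts, ratio 121 with a counting interval of 21.3 to 4827, edgeR adjusted p = 0.000316). Tmprss11f, a membrane serine protease, had 2.82, 4.21 and 0.869 CPM against 11.1, 15.3 and 21.3 CPM (log2 2.58, edgeR adjusted p = 0.000882). Cts7 had means of 0.326 and 2.68 CPM (log2 3.06, edgeR adjusted p = 0.0437). Reg2 and Cts7 passed the filter on low counts only through their knockout libraries, where they are high. The other 31 members gave 13 calls among 28 tested. They include A630010A05Rik, named here after its values were seen, with 4.15, 5.45 and 3.28 CPM against 34.6, 32.7 and 26.8 CPM (log2 2.87, edgeR adjusted p = 1.4e-06). Clca3a2, just inside the rule at d2, had means of 18.4 and 20.2 CPM at e18.5 (edgeR adjusted p = 0.911).

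**Figure D3:**
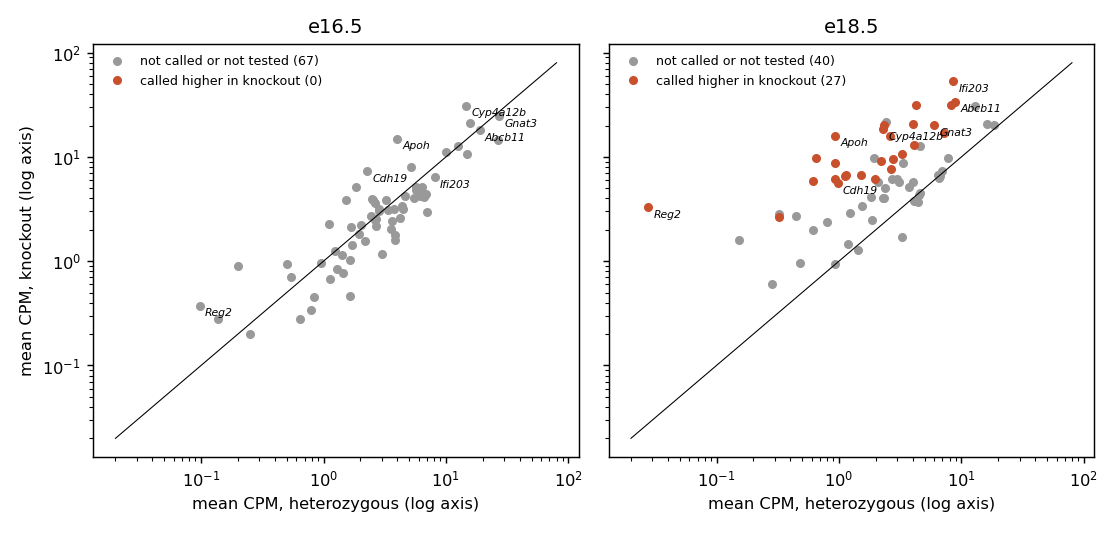
Mean CPM of the members in heterozygous (horizontal) and knockout cells (vertical) at e16.5 and e18.5 on log axes, with members called by edgeR coloured and the diagonal marking equal levels. At e16.5 the points lie on both sides of the diagonal with 0 called, and at e18.5 the 27 called members lie above it.

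The name of the set, silent in heterozygous cells, held for d2 and not for the embryonic ages. The heterozygous mean was at least 1 CPM in 57 of 67 members at e16.5 (85.1%, against 66.2% of all genes) and in 51 of 67 at e18.5 (76.1%, against 70.7%). Of the 27 members called at e18.5, 19 had a heterozygous mean of at least 1 CPM there and 8 had less. The d2 thresholds, applied at e18.5, were met by 10 of 67 members and by 0.556% of genes with a count. Applied at e16.5 they were met by 0 members and by 0.0222% of genes.

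At e16.5 few members differed by either tool. Of 56 members tested by edgeR 0 were higher and 0 lower, beside 0.0% higher and 0.0061% lower over 16384 genes (1 gene, Tex15 itself). At an unadjusted p under 0.05 there were 3 higher (Cdh19, Apoh and Cyp4a12b) and 2 lower (Slco1a5 and Clca3a2), while 7.73% of all genes tested had such a p. DESeq2 called 2, Apoh (adjusted p = 0.000483) and Cyp4a12b (0.0469). No overlap with knockout higher was seen in 4 of 67 members (3.59% of genes with a count) and with heterozygous higher in 7 (7.59%). Markers of other testis cells lay to the lower side in knockout libraries at this age. At an unadjusted p under 0.05, 7 of 8 stroma, 4 of 9 Sertoli and 4 of 6 Leydig markers were lower and 0 higher (median log2 -1.02, -0.50 and -1.61), though edgeR and DESeq2 called 0 after adjustment. Their sums were 145 to 317 and 121 to 144 CPM for stroma, 65.1 to 76.3 and 45.8 to 56.6 CPM for Sertoli cells, and 23.0 to 107 and 19.5 to 26.5 CPM for Leydig cells, in heterozygous and knockout libraries. The part of these cells in the members' values was not tested.

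Gnat3 had 18.5, 37.0 and 25.9 CPM in heterozygous and 21.3, 19.5 and 33.0 CPM in knockout libraries at e16.5, with full overlap. Abcb11 had 13.5, 18.8 and 24.1 CPM against 19.7, 12.2 and 22.4 CPM, also overlapping. Slco1a5 lay the other way, at 18.4, 36.6 and 24.2 CPM against 12.7, 13.5 and 17.8 CPM (log2 -0.77, edgeR adjusted p = 0.629). By contrast the knockout libraries were already higher without overlap for Apoh, at 4.31, 5.93 and 1.77 CPM against 16.8, 11.5 and 16.7 CPM (log2 1.96 ± 0.38, edgeR adjusted p = 0.482). Cyp4a12b was similar, at 14.1, 20.6 and 8.93 CPM against 31.7, 23.6 and 38.1 CPM (log2 1.16 ± 0.29, edgeR adjusted p = 0.629), and so was Cdh19, at 3.55, 3.02 and 0.208 CPM against 6.81, 7.20 and 8.11 CPM (log2 1.73 ± 0.59, 0.629). None of these 3 passed the edgeR threshold.

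**Figure D4:**
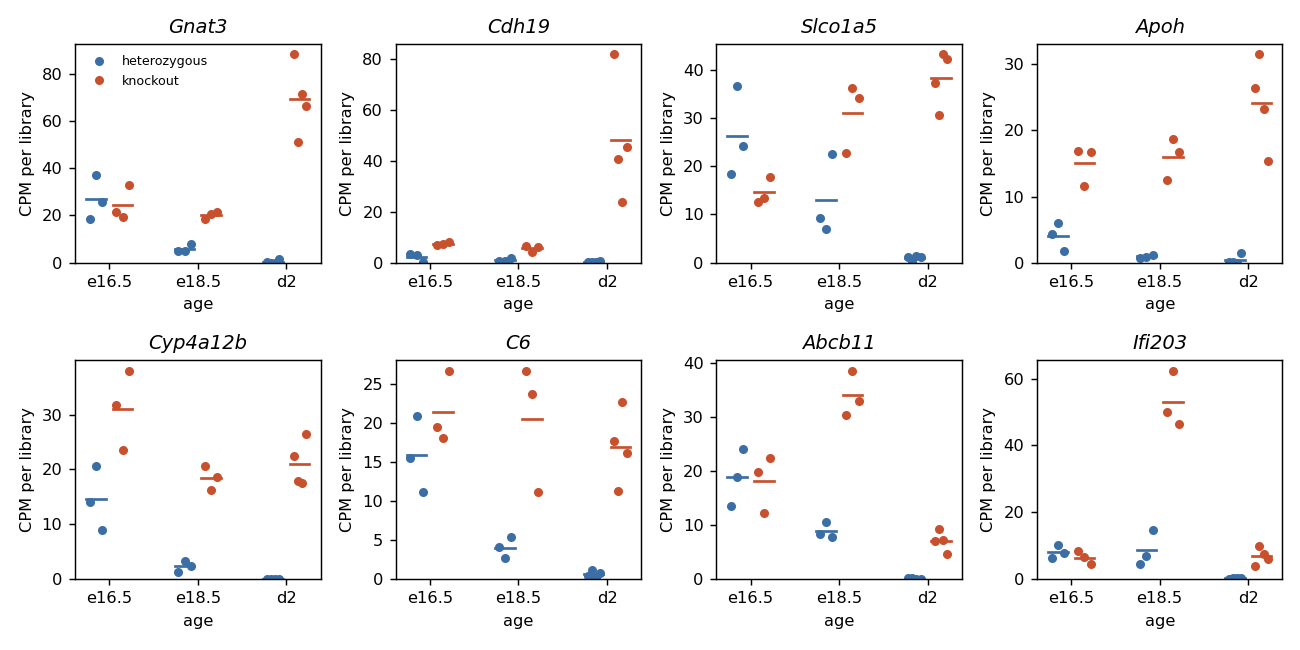
CPM of Gnat3, Cdh19, Slco1a5, Apoh, Cyp4a12b, C6, Abcb11 and Ifi203 in every library at e16.5, e18.5 and d2, with a point per library and a short bar at the mean of each group (linear axis from 0). The heterozygous libraries have 18.5 to 37.0 CPM of Gnat3 at e16.5 and 0 to 1.47 CPM at d2, where the knockout libraries have 51.2 to 88.3 CPM.

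Whether the knockout effect differed between the embryonic ages was tested as an interaction in a joint fit of the 12 embryonic libraries. Of 66 members tested, 9 had a larger effect at e18.5 and 0 a smaller one, against 0.365% and 0.0483% of 18652 genes. At an unadjusted p under 0.05 there were 30 and 0 members, while 9.08% of all genes tested had such a p. DESeq2 called 18 members, and no share over all genes is given for it. The named members were Ifi203 (log2 difference of effects 2.87 ± 0.47, edgeR adjusted p = 0.00638), Lair1 (2.30 ± 0.41, 0.00983), Abcb11 (1.88 ± 0.33, 0.00983) and Gnat3 (1.81 ± 0.37, 0.0287). Gnat3 lost this call in 8 of the 12 fits that left out a library, with an adjusted p up to 0.119. The count of 9 fell to 5 without heterozygous e18.5 replicate 1, without knockout e16.5 replicate 2 or without knockout e18.5 replicate 1. For Apoh the difference of effects was 2.14 (edgeR adjusted p = 0.0923), for Cyp4a12b 1.84 (0.0780) and for Cdh19 0.80 (0.788). Apoh was called by DESeq2 and without heterozygous e16.5 replicate 3, and Cyp4a12b under both of these and with no filter (lowest adjusted p 0.0052 and 0.0066, highest 0.287 and 0.267). Cdh19 was called in no setting.

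The course within each genotype was compared after the data had been seen, with contrasts that share libraries with the tests above. In heterozygous cells 19 of 66 members fell and 6 rose from e16.5 to e18.5, against 12.7% lower and 12.3% higher over all genes tested. Cyp4a12b fell by 2.83 on the log2 scale (edgeR adjusted p = 1.0e-05), Gnat3 by 2.33 (9.1e-06), Apoh by 2.28 (0.000546), Abcb11 by 1.21 (0.00115) and Slco1a5 by 1.17 (0.0186). The 6 that rose were Ralyl (log2 3.49), Foxf2 (2.13), Kctd8 (3.57), the adrenergic receptor gene Adra2c (1.65), Clca3a2 (1.29) and 4930453L07Rik. The heterozygous mean over the 3 ages was highest at e16.5 in 38 of 67 members, at e18.5 in 29 and at d2 in 0, where the rule limits it to under 1 CPM.

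In knockout cells more members rose than fell between the embryonic ages. From e16.5 to e18.5, 30 of 66 rose and 3 fell, against 22.7% higher and 20.2% lower over all genes. Ifi203 rose by 2.81 on the log2 scale (edgeR adjusted p = 4.45e-06), Cyp7b1 by 2.31 (0.00189), Cd36 by 1.72 (0.000746) and Lair1 by 1.30 (0.00105). The 3 that fell were Cyp4a12b (log2 -0.99, edgeR adjusted p = 0.00978), Clvs1 and Epyc. Gnat3 (log2 -0.52, edgeR adjusted p = 0.106) and Apoh (-0.15, 0.738) passed in neither direction. In 43 of 67 members the knockout mean was higher at e18.5 than at d2, though these ages come from separate tables and were not compared by a test.

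The genotypes contributed differently from gene to gene. Ifi203 had means of 8.08 and 8.62 CPM in heterozygous cells at e16.5 and e18.5 and rose in knockout cells from 6.35 to 52.9 CPM by the edgeR contrast above, with 0.173 and 6.78 CPM at d2. Gnat3 had means of 27.1, 5.94 and 0.451 CPM in heterozygous cells at the 3 ages, and in knockout cells 24.6, 20.2 and 69.4 CPM. Cyp4a12b in knockout cells had 31.1, 18.4 and 21.1 CPM while heterozygous cells had 14.6, 2.30 and 0 CPM. In the median member the heterozygous level was 2.83, 2.36 and 0.331 CPM at the 3 ages and the knockout level 2.94, 6.20 and 3.88 CPM.

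Summed over the set, the libraries had 247, 358 and 337 CPM in heterozygous and 331, 248 and 360 CPM in knockout cells at e16.5. At e18.5 the sums were 185, 232 and 285 CPM against 700.0, 687 and 573 CPM. At d2, where the rule sets the difference, they were 26.5, 20.3, 22.7 and 33.6 CPM against 545, 484, 508 and 486 CPM. Names of young L1 elements, mobile transposons, summed to 27221 to 42239 and 22686 to 36310 CPM at e16.5, 27602 to 58904 and 85794 to 104240 CPM at e18.5, and 9722 to 14059 and 19887 to 25223 CPM at d2, in heterozygous and knockout libraries. Names of the IAP retrovirus family had 2054 to 2850 and 2130 to 3460 CPM at e16.5, 1856 to 2302 and 4292 to 4622 CPM at e18.5, and 1355 to 1946 and 2822 to 3227 CPM at d2. The genotypes overlapped at e16.5 and not at the later ages in all 3 sums. Single IAP names were apart at e16.5 already: IAPEz-int had 604 to 742 CPM in heterozygous and 827 to 1214 CPM in knockout libraries, and IAPLTR1_Mm 90.8 to 129 and 159.6 to 224 CPM. The other IAP names, IAPLTR1a_Mm, IAPLTR4_I, IAPEY3-int and IAP-d-int, overlapped at e16.5. Knockout means were the lower ones for IAPEY3-int (678 and 609 CPM) and IAP-d-int (954 and 849 CPM).

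**Figure D5:**
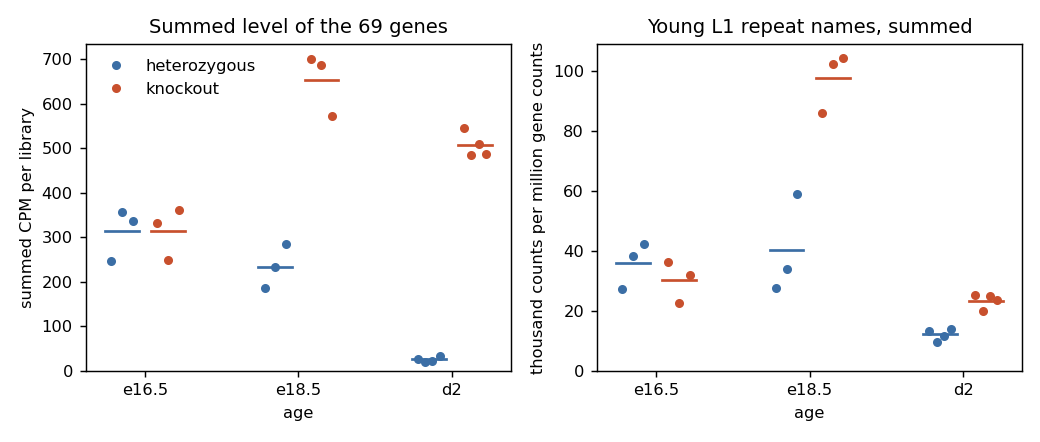
Summed CPM of the 69 members and of the young L1 names in each library by age and genotype, with a point per library and a bar at the group mean, both axes starting at 0. The members' sum is 248 to 360 CPM in knockout cells at e16.5, 573 to 700.0 CPM at e18.5 and 484 to 545 CPM at d2, and the heterozygous sum at d2 is 20.3 to 33.6 CPM.

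Of the companion genes listed for the liver, bile salt, Cyp4, taste, Schwann cell and cadherin programs, 1 passed the test as higher at d2, Cdh12. Over the 15286 genes outside the set that were tested at d2, 266 (1.74%) were higher and 119 (0.778%) lower in knockout cells by edgeR, 385 in all. That count was 144 without knockout replicate 1, 168 without knockout replicate 3, 194 without knockout replicate 4, 174 without heterozygous replicate 1 and 196 with the replicate number in the fit. Liver secreted proteins had 0 higher and 1 lower of 8 tested (0 and 2 at an unadjusted p under 0.05, 0 and 1 by DESeq2): transferrin (Trf) fell from 14.5 ± 2.62 to 5.19 ± 2.02 CPM (edgeR adjusted p = 0.0290). Albumin (Alb) had 0 to 0.331 CPM in heterozygous and 0 to 0.249 CPM in knockout libraries. Afp, on the same list, had 114 to 154 CPM in heterozygous and 85.3 to 108 CPM in knockout libraries (edgeR adjusted p = 0.109). Apob had means of 61.4 and 43.2 CPM (edgeR adjusted p = 0.505). The median log2 change of the 8 tested was -0.39. Bile salt genes had 0 edgeR calls of 6 tested (14 listed) and Cyp4 hydroxylases 0 of 5 (20 listed). At an unadjusted p under 0.05 they had 1 and 3, all lower, and DESeq2 called 0 of either. Cyp4a12a, a close relative of Cyp4a12b and its neighbour, had means of 0.248 and 0.0322 CPM and was not tested. Cyp4a14, not tested either, had 0 CPM in every heterozygous library and 0.129 to 2.11 CPM in knockout libraries. Among bile salt genes not tested, Slco1b2 had means of 0.205 and 1.87 CPM and Nr1h4 2.07 and 0.943 CPM.

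Taste transduction genes had 0 edgeR calls of 6 tested beside Gnat3 (0 higher and 1 lower both at an unadjusted p under 0.05 and by DESeq2). Tas1r3, a taste receptor, had means of 8.73 and 7.55 CPM and Plcb2, the phospholipase of the same cascade, 32.7 and 17.5 CPM (edgeR adjusted p = 0.0575). Schwann cell and neural crest markers had 0 of 6, also unadjusted and by DESeq2: Sox10, the factor that defines those cells, had 4.45 ± 1.5 and 2.97 ± 1.21 CPM. Without Cdh19, which the rule chose, the sum of the list lay between 48.4 and 82.3 CPM in heterozygous libraries and between 47.4 and 52.3 CPM in knockout libraries.

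Type II cadherins had 1 call of 9 tested, and a large one. Cdh12, a cadherin of neurons, rose from 1.93 ± 1.14 to 104 ± 5.0 CPM at d2 (log2 5.89 ± 0.28 SE, n = 4 per genotype, edgeR adjusted p = 1.4e-10). It failed the rule of the set only because its heterozygous mean was above 1 CPM. At e18.5 it had 16.9 ± 10.4 and 63.7 ± 0.243 CPM (edgeR adjusted p = 0.00422), and at e16.5 65.5 ± 15.7 and 64.0 ± 10.1 CPM (0.959). Cdh7, next to Cdh19 on the chromosome, had 2.28 and 0.880 CPM at d2 (0.328).

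Germline genes with promoters known to be controlled by methylation had 3 higher and 1 lower of 18 tested at d2 (7 and 1 at an unadjusted p under 0.05, 5 and 1 by DESeq2). Dazl had a log2 change of 0.61 (edgeR adjusted p = 0.0349), Sycp1 of 1.04 (0.00222) and Sycp3 of 0.63 (0.00569), from means of 147 CPM or more in heterozygous cells, and Dpep3 fell by 0.83 on the log2 scale (0.0413). None of these is silent in heterozygous cells, so this list differs from the set in level. Sertoli markers had 0 higher and 1 lower of 9 tested by edgeR (1 and 1 at an unadjusted p under 0.05, 0 and 1 by DESeq2), with a median log2 change of 0.14. Sox9 fell from 24.4 to 9.57 CPM (0.0189), while Inha and Aard had log2 changes of 0.69 and 0.66 that did not pass (0.495 and 0.295). Stroma markers had 0 edgeR calls of 9 tested at d2 (3 higher at an unadjusted p under 0.05, 1 by DESeq2), with sums of 169 to 248 and 207 to 345 CPM.

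At e18.5 edgeR called as higher 2 of 17 Cyp4 genes tested, 2 of 14 bile salt genes and 2 of 13 type II cadherins. It called 1 of 11 liver genes, 1 of 10 taste genes and 1 of 10 Schwann cell and neural crest markers. None of these lists had a gene called lower, and each count includes the 1 member of its list. Cyp4a32, a hydroxylase of the same subfamily as Cyp4a12b, rose from 0.928 ± 0.290 to 7.19 ± 3.13 CPM (log2 2.96, edgeR adjusted p = 0.00102). Cyp7a1, the rate-limiting enzyme of bile acid synthesis, rose from 6.49 ± 1.82 to 15.9 ± 3.29 CPM (log2 1.29, edgeR adjusted p = 0.0171). At d2 it had 5.03 and 4.60 CPM (0.982). Dcn, a matrix proteoglycan and the 1 call among 8 stroma markers tested, rose from 1.81 to 5.95 CPM at e18.5 (0.0434), in sums of stroma markers that overlapped.

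Of 52 protein-coding members, 4 (7.69%) had another member next to them, and no share over all genes is given for this. Among the protein-coding members, the pairs Gnat3 with Cd36 and Cyp7b1 with Bhlhe22 were next to each other in RefSeq gene order. Of 96 neighbouring genes that are not members, 54 were tested at d2, 1 rose and 0 fell, beside 1.74% and 0.778% over all genes outside the set. Among the 52 of these listed under their RefSeq symbol, 5 were higher and 0 lower at an unadjusted p under 0.05, and DESeq2 called 3 and 0. For these counts no share over all genes is given. The 1 called by edgeR was Clca3b, next to Clca3a2 and of the same family, with means of 2.56 and 9.63 CPM (edgeR adjusted p = 0.00993). Neighbours that were not tested lay in both directions. Defb14, next to Defb4, had means of 0.0872 CPM in heterozygous and 1.79 CPM in knockout libraries. Clec2i, next to Clec2g, had 0.654 and 0.171 CPM. Gnai1, on the other side of Gnat3, had 32.5 and 35.3 CPM. Prkca and Cep112, on either side of Apoh, had 56.3 and 43.3 CPM and 98.2 and 100.3 CPM. G6pc2 and Dhrs9, on either side of Abcb11, had 1.01 and 0.489 CPM and 0 and 0.796 CPM and were not tested, nor was Cyp4a30b, the other neighbour of Cyp4a12b, at 0 and 0.340 CPM. Dsel, on the other side of Cdh19, had 34.1 and 36.6 CPM.

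Within the set, promoter CpG content and the e18.5 call were set side by side as a description. The 20 members called higher at e18.5 that had a promoter entry had a median of 3 CpG, and 1 of them had more than 10. The 31 other members had a median of 5, and 7 of them had more than 10. Foxf2, with the 27 CpG shown above, was among the latter and had its highest knockout d2 level in a single library.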

How the data were processed

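Counts per gene symbol and per repeat name for 20 libraries (total RNA of sorted germ cells, amplified with Ovation kits, per the labels' protocols) were used as the authors deposited them, as raw whole numbers. Per the submitters' processing notes STAR, featureCounts, edgeR and Bowtie were used with the build mm9. Versions, roles, the treatment of reads with several matches and the use of strand are not given in the sources used here. A second deposited table per age, with estimated counts per repeat family, was not used.

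CPM are counts over the sum of gene rows, without scaling factors. Each age was fitted alone in edgeR 4.0.16 (R 4.3.3) after filterByExpr (at least 10 counts, 15 in total), with TMM factors, a robust quasi-likelihood fit and its F test, two-sided, with Benjamini-Hochberg adjustment over all genes and a threshold of 0.05. A joint fit of the embryonic libraries gave the interaction and, added after the data were seen, the contrasts between ages within a genotype. Samples were grouped by their titles. Results were recomputed, where it applied, with DESeq2 1.42.0, a filter at 1 CPM or none, factors from median ratios, the replicate number as a block, all ages in 1 fit and leaving out each library. The fits were tested on simulated data.

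Ratios of summed counts have exact binomial intervals at 95%. These intervals, and the limit of 3 counts that stands for a group without counts, include only the error of counting. At d2 they describe values by which the rule chose the genes. Members and gene lists were chosen with earlier results of these data known. Named genes were the 5 markers of the set, up to 12 members highest in knockout d2 cells, up to 12 called at e18.5 with the smallest p, up to 5 not called with the highest knockout level, up to 5 called at e16.5 and in the interaction, those at the thresholds, up to 3 called non-members per list, otherwise the 2 highest, and neighbours of the markers. Gm and Rik symbols were left out there. Members named outside this rule (Cd36, Cts7, Foxf2, Ralyl, those of the age contrasts and single low companions of a list) were chosen after their values were seen. Lists of Leydig, endothelial and red blood cell markers gave 0 calls at any age by edgeR or DESeq2 (at an unadjusted p under 0.05, Leydig 4 lower at e16.5 and 1 higher at e18.5, endothelial 1 higher at e18.5 and 1 each way at d2, red blood cell 0).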

Additional observations from a re-analysis of the deposited data

Results flagged for a closer look

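Single libraries far from the other 3 of their group were looked for in 59 groups of 4, where chance flags about 1 in 20 groups. In heterozygous d2 replicate 4 stood Apoh at 1.473 CPM, Asb12 at 0.6137 CPM and the summed Leydig cell markers at 45.04 CPM, each above the other 3 libraries. Knockout d2 replicate 3 had the lowest Clec2g, at 11.2 CPM, where the others had 13.9 to 14.2 CPM. Knockout d2 replicate 2 had Tex15 at 102.8 CPM, far above the other knockout libraries.

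The knockout effect was larger at e18.5 than at e16.5 by the edgeR interaction test for 4 named members, on the log2 scale by 2.866 for Ifi203 (adjusted p = 0.00638), 2.296 for Lair1 (0.00983), 1.88 for Abcb11 (0.00983) and 1.812 for Gnat3 (0.0287).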

How the results depend on the processing

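No call turned in direction. Fold changes near 0 that were never called did change sign between settings: Clca3a2 at e18.5 from -0.17 to 0.46 on the log2 scale, and at e16.5 Abcb11 from -0.13 to 0.21 and Gnat3 from -0.29 to 0.24. With DESeq2, 2 members were called at e16.5 in place of 0, 18 in the interaction in place of 9, and 717 genes outside the set at d2 in place of 385, where the replicate block gave 196. The cause was not tested. Requiring a knockout mean of at least 4 CPM left 33 of the 69 members, by construction. CPM over all counts, repeats included, gave 55 genes, of which 33 were shared. Leaving out single libraries gave 18 to 30 calls at e18.5, 0 at e16.5, 5 to 13 in the interaction, 144 to 526 outside the set at d2, and 69 to 92 members. The contrasts between ages gave 17 to 30 calls in heterozygous and 24 to 30 in knockout cells in the same way.

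With the replicate block, 31 members were called at e18.5, 0 at e16.5 and 9 in the interaction, and no share over all genes is given for these. Same-numbered libraries of the 2 genotypes correlated at 0.105, 0.0533 and 0.0831 at e18.5, at -0.254, 0.0793 and 0.0753 at e16.5, and at 0.0194, -0.185, 0.0533 and -0.138 at d2. Nothing in the labels says that the numbers pair, and such correlations cannot decide it. At e18.5 each heterozygous library correlated best with its own number, a hint from the data and not from the design. Depth limits the low members most: Abcb11 at d2 rested on 2 heterozygous counts.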
